A study of Mus musculus with 17 samples.

Results

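The comparison of all flight mice with ground control mice took the 12 plasma cell-free RNA (cfRNA) libraries of mice that flew on the International Space Station, of 17 libraries in the series, against the 5 libraries of ground control mice (GC). The flight libraries were 6 of artificial gravity mice (AG), which were kept on rotating platforms that gave 1-G on board, and 6 of microgravity mice (MG). Flight was taken as the mean of the AG mean and the MG mean, so that each gravity condition had equal weight. The question was which RNAs moved the same way in both flight groups, whatever the gravity. All mice were wild type C57BL/6J, labelled 13 weeks of age, and in each case 50 μl of plasma was extracted. The labels give no dose, drug or allele beyond the 3 housing conditions. GC mice differed from both flight groups in launch, return, confinement and everything else that goes with a flight, and these factors cannot be told apart here. The AG and MG comparisons with ground share the same 5 GC libraries, so their values are given side by side and not as independent evidence.

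Plasma cfRNA is the mixture of RNA fragments that cells release into blood, most of it from red cells, platelets, white cells and, in smaller amounts, organs such as the liver. The libraries were made with a small RNA kit because the RNA was degraded, and such a kit favours microRNAs, small nucleolar RNAs (snoRNAs) and short pieces of longer RNAs. MicroRNAs are cut from a hairpin in a longer host transcript and silence mRNAs that pair with their seed, while snoRNAs are released from introns of host genes and guide chemical modification of ribosomal RNA. Reads of a small RNA that lies inside a host gene can be counted for the host gene, and the deposited files give no read positions, so they cannot be told apart. In plasma, a lower count of a cell type's RNA can mean fewer cells or less RNA per cell, and these cannot be told apart either.

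Counts per library summed to between 84657 and 277682, and 4 genes took most of them. These were Tmem38b, Polr2m, Lars2 and Rn18s-rs5, each above 5% of the counts in at least 1 library. All 4 stand on the list of genes of ribosomal RNA-like sequence. Their counts may therefore reflect ribosomal RNA reads and not their own mRNAs, which was not tested. Tmem38b took 58.3% ± 10.5 (SD, n = 12) of the counts in flight and 51.2% ± 15.3 (SD, n = 5) in GC, and the two-sided exact permutation test over libraries gave p = 0.245. The shares of Polr2m, Lars2 and Rn18s-rs5 and the total count gave exact permutation p-values of 0.801, 0.336, 0.523 and 0.681, and all 5 were 0.801 after Benjamini-Hochberg adjustment. The mapped reads that RPKM implies ran from 1596032 to 9796884 per library, so the counts tested were a small part of them. That part was uneven, with 116902 counts of 9796884 in MG_4 and 84657 of 1596032 in GC_1. TMM scaling factors ran from 0.482 to 1.92, and GC_4 (0.525) and MG_6 (0.577) stood apart from the rest of their groups. Reads were found for 4 of 9 globin, 22 of 22 platelet, 16 of 20 myeloid and 17 of 19 lymphocyte markers, and globin reads were a median of 10% in AG, 5.99% in MG and 4.65% in GC of the counts outside the 4 genes.

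Across the 272 genes with enough counts to test, 2 were called at an adjusted p under 0.05 between flight and GC, 0.735% of the genes tested, and both were higher in flight. They were Trim39, a ubiquitin ligase of the TRIM family, and Hist1h3b, a replication-dependent histone H3 gene. By the criterion that the study used, an unadjusted p under 0.05 with a fold change over 1.5, 10 genes were higher (3.68%) and 3 were lower (1.1%) in flight. This balance turned round under other scalings, with 6 higher and 25 lower without a TMM factor and 3 higher and 22 lower on log2(RPKM + 1). Single libraries moved it too, with 19 higher and 7 lower without GC_4, 10 and 13 without MG_6 and 11 and 11 without GC_1. In all, 13 genes had an unadjusted p under 0.05 (4.78% of those tested). Genes with few GC reads could enter this test through their flight libraries. Hist1h3b, Alb and F630028O10Rik did so, with 21, 22 and 21 GC reads in all. Flight had 12 libraries and GC 5, so the filter can favour genes high in flight and tilt the balance of higher and lower genes. No gene had all 12 flight libraries outside the range of the 5 GC libraries (0.0%). The median log2 fold change over all 272 genes was -0.096, with -0.21 in AG and -0.0034 in MG. TMM scaling sets most genes near 0 by construction, and the same median was -0.49 with no TMM factor and -0.36 on log2(RPKM + 1).

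Trim39 (chr17:36258873-36272247 on GRCm38, minus strand) in TMM-normalized CPM (counts scaled to library size and composition) ran from 525 to 1108 with a median of 770.2 in AG, from 159.8 to 763 with a median of 302 in MG, and was 109, 77.8, 130.4, 311 and 125 in GC. All 12 flight libraries were above the GC median and 9 were above the highest GC library, which was GC_4. A log2 fold change of 1.83 (SE 0.43) was found, a 3.56-fold higher level (edgeR quasi-likelihood test, unadjusted p = 0.000308 and adjusted p = 0.0457). Against GC the log2 fold change was 2.40 in AG and 1.27 in MG, and MG against GC alone did not call it.

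Hist1h3b (chr13:23752267-23752886, plus strand) ran from 96.2 to 422 with a median of 220.5 in AG, from 32.1 to 205 with a median of 106 in MG, and was 21.9, 7.41, 6.21, 100.3 and 20.9 in GC. Its flight libraries were also all above the GC median, and 8 of 12 were above the highest GC library. The flight libraries differed from GC by 2.49 (SE 0.59) on the log2 scale, 5.61-fold (edgeR quasi-likelihood test, unadjusted p = 0.000336 and adjusted p = 0.0457), with 2.94 in AG and 2.04 in MG. The counts behind it were low in GC, from 1 to 10 reads per library, against 4 to 39 in flight, so it entered the test through its flight libraries. Both calls were lost when any 1 of AG_3, AG_4, AG_5, AG_6, MG_1, MG_2, MG_4, MG_5, GC_1, GC_2, GC_3 or GC_5 was left out, with adjusted p up to 0.259, while the log2 fold change of Trim39 stayed between 1.65 and 2.25 and that of Hist1h3b between 2.18 and 3.43 over the 17 leave-outs. Neither gene was called without a TMM factor, with a minimum count of 5, among all genes with at least 5 reads, with the reads recovered from RPKM added, on log2(RPKM + 1), with flight as 1 group of 12 libraries, or with the share of the 4 abundant genes as a covariate.

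**Figure D1:**
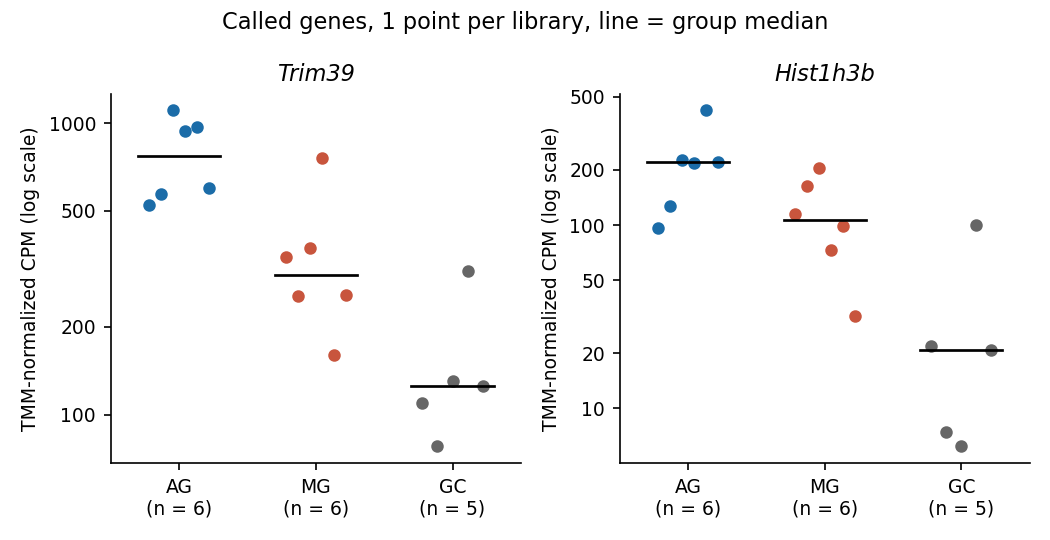
TMM-normalized CPM (log axis) of Trim39 and Hist1h3b in each of the 6 AG, 6 MG and 5 GC libraries, 1 point per library, with a line at the group median. All 12 flight libraries lie above the GC median in both panels, and GC_4 is the highest GC point (311 for Trim39 and 100.3 for Hist1h3b).

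Of 6 tested histone genes, 2 passed the study's criterion in the higher direction (3.68% of all tested genes did) and 0 in the lower (1.1% of all), and the other 4 lay between -0.36 and 0.79 on the log2 scale. The median over the 6 was 0.23, against -0.096 over all genes. The second member past the criterion was Hist2h2aa2, a histone H2A gene, with a log2 fold change of 2.18 (SE 0.85) (edgeR, unadjusted p = 0.0172 and adjusted p = 0.521). Hist2h2aa1, its near-identical copy, had -0.35 (SE 0.82), and reads of these copies can be split between them, so neither value is certain. Among the 28 histone genes with at least 5 reads, 7 were higher by the criterion and 0 lower, where 5.69% and 5.34% of the 6270 genes with at least 5 reads were, and without AG_6 and MG_6 6 were higher and 1 lower. A gene can pass that filter on flight reads alone, as Hist1h2bf did with 14 flight and 0 GC reads and Hist1h2ap with 7 and 0, so these counts describe the genes that passed and support nothing.

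Among the 10 genes higher by the study's criterion, 4 were host genes of microRNAs, and all 4 tested members of the microRNA host list passed it, where 3.68% of all tested genes did. The list was drawn up with earlier results of these data known, so its count is a description. It also depends on the scaling. On log2(RPKM + 1) 3 genes were higher by the criterion, Trim39 and Hist1h3b among them, so most of the 4 hosts did not pass it there. Vmp1, an autophagy membrane protein gene, holds Mir21a in an exon. F630028O10Rik, annotated as an antisense RNA, holds Mir223. Mir17hg is the host of the miR-17 to miR-92 cluster, and Mcm7, a subunit of the replicative helicase, holds Mir25, Mir93 and Mir106b. The mature forms are shown because their seeds group the hosts. In RefSeq on GRCm38.p6, all 15 of the mature microRNAs looked up matched, and the capitals mark the seed, bases 2 to 8. In the Vmp1 and F630028O10Rik hosts:
miR-21a-5p: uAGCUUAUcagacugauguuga
miR-223-3p: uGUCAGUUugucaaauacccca
The miR-17 cluster of Mir17hg and the cluster of Mcm7 share 2 seeds. The first is AAAGUGC, found in both:
miR-17-5p: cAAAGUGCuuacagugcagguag
miR-20a-5p: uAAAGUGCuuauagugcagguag
miR-93-5p: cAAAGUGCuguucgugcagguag
miR-106b-5p: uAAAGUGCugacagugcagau
The second is AUUGCAC, again in both:
miR-92a-3p: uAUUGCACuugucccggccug
miR-25-3p: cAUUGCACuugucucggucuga
The remaining members of the Mir17hg cluster carry other seeds:
miR-18a-5p: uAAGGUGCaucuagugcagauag
miR-19a-3p: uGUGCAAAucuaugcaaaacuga
miR-19b-3p: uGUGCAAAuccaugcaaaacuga

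Vmp1 (chr11:86583865-86683836, minus strand) ran from 1031 to 6105 with a median of 2643 in AG, from 1043 to 2531 with a median of 1210.5 in MG, and was 445, 689.5, 596, 1655 and 405 in GC. All 12 flight libraries were above the GC median, and GC_4 was above 7 of them. On the log2 scale the difference from GC was 1.52 (SE 0.46) (edgeR, unadjusted p = 0.00327 and adjusted p = 0.222), with 2.12 in AG and 0.92 in MG.

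F630028O10Rik (chrX:96239926-96243636, plus strand) ran from 26.1 to 183 with a median of 97.2 in AG, from 33.6 to 120.4 with a median of 68.1 in MG, and was 29.2, 33.4, 6.21, 40.1 and 12.5 in GC. Of the 12 flight libraries, 10 were above the highest GC library and AG_6 was below the GC median. In log2 terms flight minus GC was 1.81 (SE 0.52) (edgeR, unadjusted p = 0.00186 and adjusted p = 0.169), with 2.05 in AG and 1.57 in MG, the nearest of the 4 hosts to equal shifts in the gravity conditions.

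Mir17hg (chr14:115042879-115046727, plus strand) ran from 244 to 750.4 with a median of 476 in AG, from 173 to 625 with a median of 227 in MG, and was 175, 77.8, 80.7, 341 and 125 in GC. The flight libraries were all above the GC median and the GC_4 library was again the highest of its group. The fitted log2 fold change was 1.20 (SE 0.45) (edgeR, unadjusted p = 0.0135 and adjusted p = 0.521), with 1.56 in AG and 0.84 in MG.

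Mcm7 (chr5:138164583-138172422, minus strand) ran from 131 to 776 with a median of 439.9 in AG, from 33.6 to 389.5 with a median of 108 in MG, and was 168, 126, 24.8, 171 and 58.4 in GC. In AG 5 of 6 libraries and in MG 2 of 6 were above the highest GC library. A log2 fold change of 1.26 (SE 0.56) was found (edgeR, unadjusted p = 0.0342 and adjusted p = 0.775), with 2.10 in AG and 0.42 in MG. None of the 4 hosts had an adjusted p under 0.05 in the main test. DESeq2 called Vmp1 and F630028O10Rik with adjusted p = 0.0143 and 0.0346. Over the alternative settings the log2 fold change ran from 0.88 to 2.02 for Vmp1 and from 0.44 to 2.01 for F630028O10Rik. It ran from 0.47 to 1.66 for Mir17hg and from 0.33 to 1.49 for Mcm7.

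**Figure D2:**
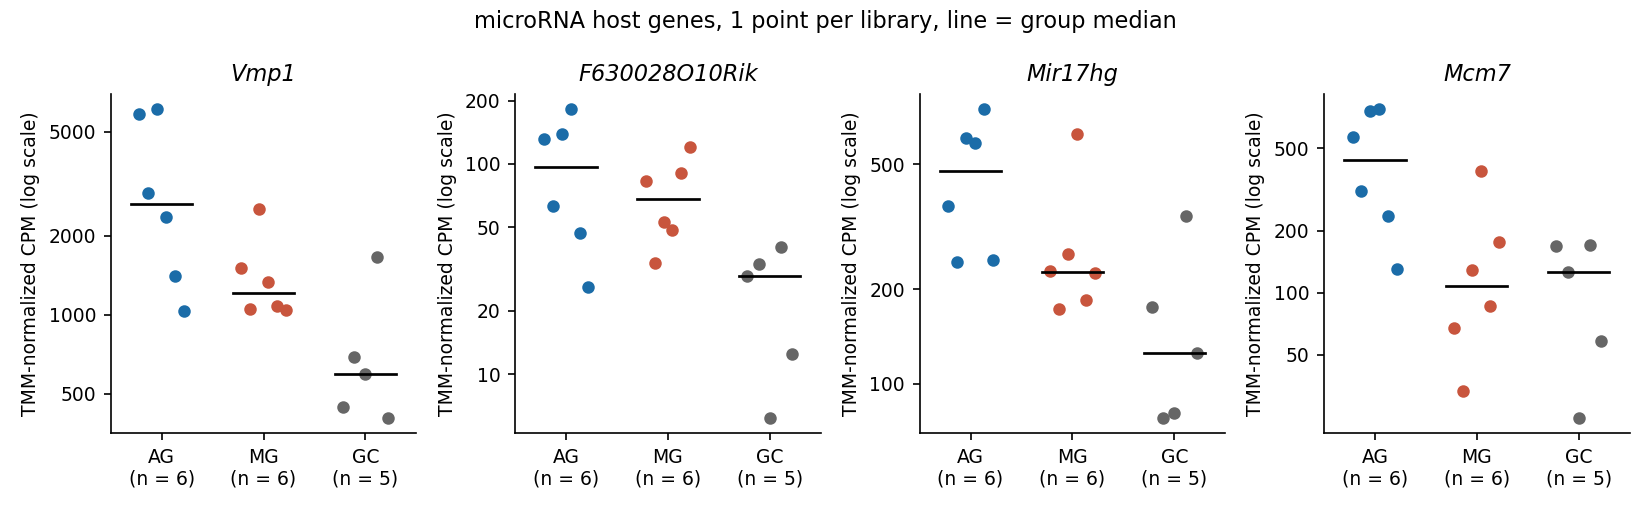
TMM-normalized CPM (log axis) of Vmp1, F630028O10Rik, Mir17hg and Mcm7 in each library, 1 point per library with a line at the group median (6 AG, 6 MG and 5 GC libraries). AG medians are the highest in all 4 panels, and the MG median is above the GC median in all but Mcm7.

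Because the host list gave its whole count, the tested genes were then sorted by the small RNA genes that GENCODE M21 places inside it on the same strand. This sorting was chosen after the values were seen and is a description. The 9 genes with microRNA genes only had a median log2 fold change of 0.88, with 7 positive, and 4 of 9 past the criterion higher, where 3.68% of all tested genes were. The other 5 were Oaz1, Gm20732, Ecm1, Actg1 and Tlcd1, which are not on the host list, with log2 fold changes of 0.88, 0.62, 0.47, -0.45 and -0.72. With at least 5 reads as the filter, 13 members of the host list could be tested, of which 5 were higher by the criterion and 1 lower (5.69% and 5.34% of the 6270 genes), with a median of 0.21. Of the 5, Mir22hg passed that filter on flight reads alone, with 23 flight and 0 GC reads, so it supports nothing. The 43 genes with snoRNA genes only had a median of -0.41, with 33 negative and 1 past the criterion lower (1.1% of all tested genes). The 6 genes with both had a median of -0.28, all negative. The 207 genes with neither had a median of -0.046 and 45.4% were positive. The other 7 genes (Snhg4, Dancr_1, Sdpr, Fam46c, Rn18s-rs5, 9430076C15Rik and G6b) had no match by name in the annotation and were not sorted. Snhg4, a snoRNA host by name, had -0.70 (SE 0.49). The microRNA hosts had medians of 1.56 in AG and 0.44 in MG, and the snoRNA hosts of -0.72 in AG and -0.098 in MG. Both class medians were farther from 0 in AG than in MG.

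**Figure D3:**
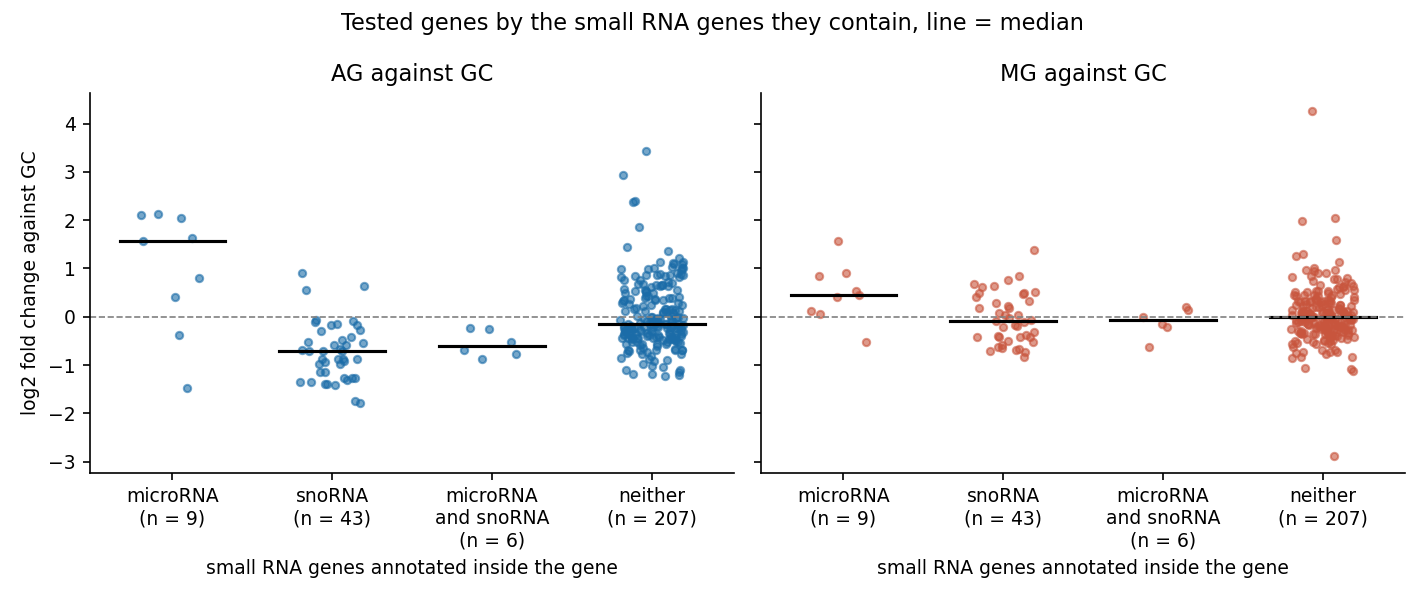
Log2 fold change against GC (y axis) of each tested gene, in AG on the left and in MG on the right, grouped by the small RNA genes annotated inside it, 1 point per gene with a line at the median. The medians of the 9 microRNA hosts are 1.56 in AG and 0.44 in MG, and those of the 43 snoRNA hosts are -0.72 in AG and -0.10 in MG.

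The microRNA genes themselves carry 0 in the deposited count column of every library, and their reads were recovered from the RPKM column. Joined to the counts, these reads gave 359 testable genes, of which 97 came from RPKM. Of the 97, 8 were higher by the criterion and 4 were lower, against 4.46% higher and 7.24% lower over all 359 genes. Only 1 gene of the 359 was called at an adjusted p under 0.05 (0.279%), Gm23143, a small nuclear RNA gene, which was lower. The other 3 lower by the criterion were Gm26316 (small nuclear RNA), Snora17 and Rn7sk, the RNA that holds back transcription elongation. Rn7sk had -1.03 (SE 0.45), and -0.25 without GC_4. The 8 higher were Mirlet7i, Vaultrc5, Mir222, Mir122, Gm24111 (an unnamed microRNA gene), Mir30a and the mitochondrial tRNA genes mt-Tp and mt-Tm. Of the 14 testable genes with names beginning Mir, 12 had a positive log2 fold change and 4 were past the criterion, and their median was 0.34, set beside -0.26 for the 359 genes together. Their medians were 0.53 in AG and 0.035 in MG, against -0.49 and -0.17 for the 359.

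Mirlet7i, the source of let-7i, had from 50 to 425 reads with a median of 172 in AG and from 42 to 106 with a median of 67 in MG, against 17, 40, 18, 64 and 15 in GC. The log2 fold change was 1.79 (SE 0.48, edgeR adjusted p = 0.0972), with 2.51 in AG and 1.06 in MG. Over the 17 leave-outs it ran from 1.61 without GC_5 to 2.55 without GC_4, the GC library with the most let-7i reads. The adjusted p ran from 0.00498 to 0.377, and the gene was called in 1 of 17, without GC_4.

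Mir222, a microRNA gene of endothelium and blood progenitors, had from 13 to 35 reads with a median of 17 in AG and from 8 to 36 with a median of 28.5 in MG, against 8, 10, 14, 8 and 12 in GC. The log2 fold change was 1.04 (SE 0.39, edgeR adjusted p = 0.345), with 0.98 in AG and 1.11 in MG. The AG and MG values were alike in size, which was not so for Mir30a, with 1.43 in AG and 0.28 in MG. Mir451a, the most abundant microRNA of red cells, had from 37 to 613 reads with a median of 192 in AG and from 20 to 167 with a median of 29 in MG, against 14, 78, 7, 108 and 15 in GC. Its log2 fold change was 1.37 (SE 0.68, edgeR unadjusted p = 0.0559), it did not pass the criterion, and over the leave-outs it ran from 1.06 to 2.52, the latter without GC_4. Their mature forms, with seeds that none of the host clusters carry, are:
let-7i-5p: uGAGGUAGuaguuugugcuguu
miR-222-3p: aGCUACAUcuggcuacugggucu
miR-30a-5p: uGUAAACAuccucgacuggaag
miR-451a: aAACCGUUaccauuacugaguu
Vaultrc5, a vault RNA gene, had from 507 to 1594 reads with a median of 736 in AG and from 622 to 1459 with a median of 916 in MG, against 361, 698, 439, 400 and 434 in GC, a log2 fold change of 1.06 (SE 0.39, edgeR adjusted p = 0.345).

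Gm23143, the called gene of the joined fit, had from 10 to 39 reads with a median of 28 in AG and from 14 to 1162 with a median of 69 in MG, against 26, 72, 1283, 2884 and 66 in GC. Its high values were MG_1, GC_3 and GC_4, and all other libraries had at most 122 reads. The log2 fold change was -3.88 (SE 0.81, edgeR adjusted p = 0.0263). Without GC_4 it was -2.34, and the call was lost in 10 of 17 leave-outs (AG_1, AG_2, AG_3, AG_4, AG_5, MG_2, MG_4, MG_5, GC_3 and GC_4), so 3 libraries decide this value. Small nuclear RNA genes have near-identical copies, so its reads are uncertain as well.

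SnoRNA hosts were mostly negative, more so in AG than in MG. Of 14 tested members of the snoRNA host list, 1 passed the criterion lower and 0 higher (1.1% and 3.68% of all tested genes). Of the 14, 10 were negative, as were 157 of all 272 genes, and the median was -0.38, against -0.096 over all. The list medians were -0.80 in AG and -0.034 in MG, so its typical member was near ground in MG. With at least 5 reads as the filter, 0 of 18 were higher and 2 lower by the criterion (5.69% and 5.34% of the 6270 genes), with a median of -0.46. Snhg1, a noncoding RNA whose gene holds 8 annotated snoRNA genes, ran from 4004 to 14362 with a median of 6819 in AG, from 3875 to 43586 with a median of 9658 in MG, and was 4145, 18428, 12391, 75004 and 18609 in GC. Of its flight libraries, 11 of 12 were below the GC median, and the exception was MG_6. The flight libraries differed from GC by -1.31 (SE 0.52) on the log2 scale (edgeR, unadjusted p = 0.0194 and adjusted p = 0.521), with -1.78 in AG and -0.84 in MG.

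Snhg5, the host of Snord50a and Snord50b, ran from 3645 to 10885 with a median of 6256 in AG, from 5911 to 31117 with a median of 10494 in MG, and was 4671, 9086, 19695, 41535 and 12093 in GC. On the log2 scale the difference from GC was -0.78 (SE 0.43) (edgeR, unadjusted p = 0.0847 and adjusted p = 0.806), with -1.34 in AG and -0.22 in MG. Snhg12 had -0.83 (SE 0.42) and Eif4a2, a translation initiation helicase gene that holds 5 snoRNA genes, had -0.79 (SE 0.38). Neither passed the criterion. Rpl5, which holds Snord21, had -0.92 (SE 0.49), and Ckap5, a microtubule gene that holds Snord67, had -1.04 (SE 0.52). In these 6 hosts the AG value was the lower of the gravity conditions each time, with -1.26 and -0.40 for Snhg12 and -1.27 and -0.31 for Eif4a2. GC_4 was the highest library for Snhg1, Snhg5, Snhg12, Eif4a2, Rpl5 and Ckap5, and without GC_4 their log2 fold changes were -0.37, -0.17, -0.17, -0.14, -0.29 and -0.64. Snora17, a snoRNA gene with its own reads in the joined fit, had -1.26 (SE 0.50) and passed the criterion lower, and without GC_4 it was -0.75. All 5 testable Sno and Scarna genes were negative, as were 241 of the 359 genes of that fit, and their medians were -1.30 in AG and 0.13 in MG.

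The snoRNAs below are 1 or a pair of those in each of Snhg5, Snhg12, Rpl5, Ckap5 and Eif4a2, shown in the 5′ to 3′ direction as the transcripts of GENCODE M21 on GRCm38 give them. The capitals mark a C box (ATGATGA or GTGATGA) within the first 20 bases and a D box (CTGA) within the last 15. Snord2 holds no C box in these letters. Of 1507 annotated snoRNA transcripts, 298 held both, 19.8%.
Snord50a: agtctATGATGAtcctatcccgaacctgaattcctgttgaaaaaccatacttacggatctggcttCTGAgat
Snord50b: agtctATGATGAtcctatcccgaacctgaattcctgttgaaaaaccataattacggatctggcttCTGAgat
Snord99: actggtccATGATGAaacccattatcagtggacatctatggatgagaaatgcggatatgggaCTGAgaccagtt
Snord21: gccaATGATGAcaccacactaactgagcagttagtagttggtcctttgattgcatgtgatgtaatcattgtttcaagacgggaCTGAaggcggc
Snord67: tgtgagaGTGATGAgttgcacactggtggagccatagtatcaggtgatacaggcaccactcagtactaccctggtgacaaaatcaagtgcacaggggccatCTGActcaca
Snord2: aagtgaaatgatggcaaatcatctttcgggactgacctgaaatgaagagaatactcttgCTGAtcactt
Snord50a and Snord50b come from Snhg5, Snord99 from Snhg12, Snord21 from Rpl5, Snord67 from Ckap5 and Snord2 from Eif4a2. A match is a description of the letters.

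**Figure D4:**
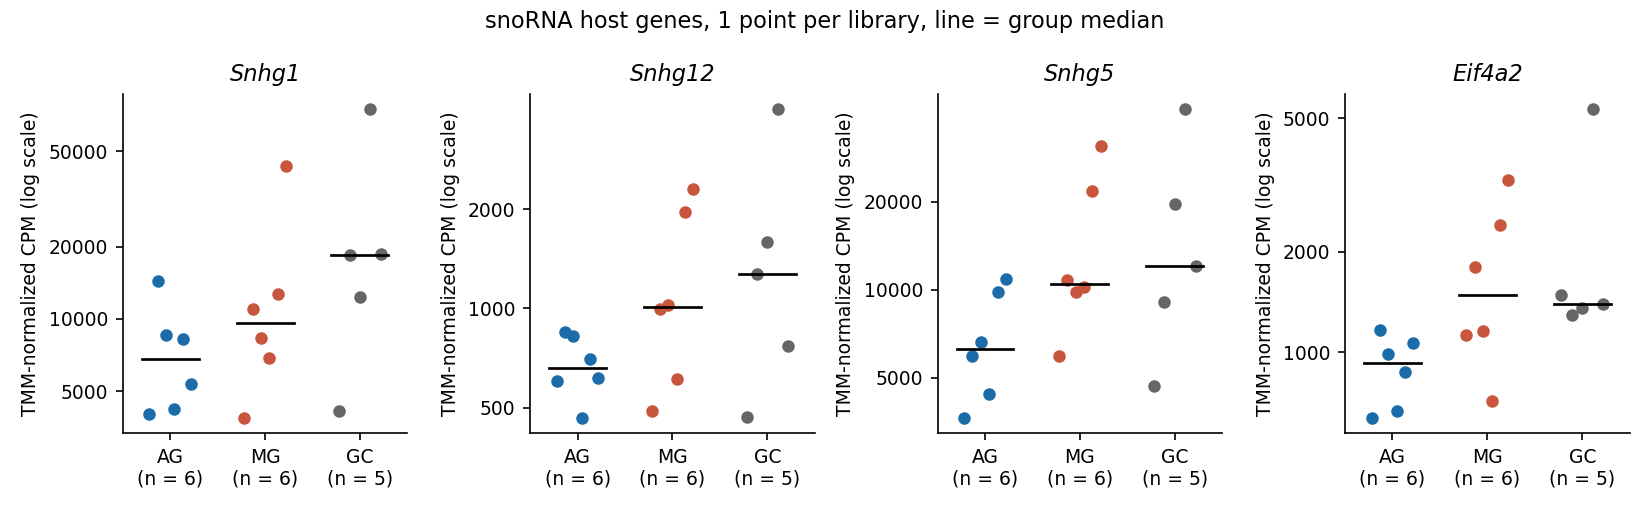
TMM-normalized CPM (log axis) of Snhg1, Snhg12, Snhg5 and Eif4a2 in each library, 1 point per library with a line at the group median (6 AG, 6 MG and 5 GC libraries). AG medians are the lowest in all 4 panels, and GC_4 is the highest GC point in each.

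Rps3a1, a ribosomal protein gene that holds 2 snoRNA genes, went the other way, with a log2 fold change of 1.14 (SE 0.59) (edgeR, unadjusted p = 0.0667 and adjusted p = 0.806), and did not pass the criterion. The ribosomal protein list does not hold Rps3a1, and its largest log2 fold change was 0.85. Over its 23 tested genes the median was -0.27, 15 were negative and 0 passed the criterion in either direction. Of the 73 with at least 5 reads, 0 were higher and 1, Rpl24, lower by the criterion (5.34% of the 6270 genes were), with a median of -0.039.

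Liver genes had higher counts in flight, and 2 libraries, AG_6 and MG_6, carried most of their reads. Alb, the gene of serum albumin, ran from 0 to 1514 with a median of 37.7 in AG, from 0 to 2359 with a median of 120.2 in MG, and was 7.3, 22.2, 24.8, 30.1 and 33.4 in GC. AG_6 and MG_6 held 116 and 294 of its reads and no other library held more than 29. In log2 terms flight minus GC was 3.85 (SE 1.38) (edgeR, unadjusted p = 0.0106 and adjusted p = 0.521), and without AG_6 and MG_6 it was 1.04 with unadjusted p = 0.154. Alb is the one liver gene with enough counts for the main test.

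Among all 6270 genes with at least 5 reads, the same test called 6 genes (0.0957%). Alb, Serpina1b, Serpina3k and Mat1a, all liver genes, were higher, and Hoxd11 and Fbln5 were lower. Serpina1b and Serpina3k encode secreted protease inhibitors and Mat1a makes S-adenosylmethionine in hepatocytes. These 3 had 0 reads in all 5 GC libraries and 82, 65 and 50 reads in flight. They passed the read filter on flight reads alone, so their calls describe genes that passed it and support nothing. Taking 3 reads over the 5 GC libraries as the limit that a count of 0 allows, they were at least 12.5-fold, 9.88-fold and 7.6-fold higher in flight. These bounds cover counting error and not the spread between libraries. Without AG_6 and MG_6 the bounds were 5.17-fold, 4.46-fold and 3.57-fold, and none of the 3 was called (adjusted p = 0.265, 0.362 and 0.362). Hoxd11, a homeobox gene, had 0 flight reads and 17 GC reads, 12 in GC_4 and 5 in GC_5, at least 12.4-fold lower in flight. It passed the filter on GC reads alone, so the same limits hold for it. Fbln5, an elastic fibre gene, had 67 GC reads, 55 of them in 1 library, GC_2.

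Of 24 genes on the liver list, 23 had at least 5 reads. All 23 had a positive log2 fold change, 10 passed the criterion higher where 5.69% of the 6270 genes did (members high in flight pass the read filter more easily), and the median was 1.73, against 0.0083 over all 6270. Without AG_6 and MG_6, 12 of 23 were positive, 1 passed the criterion higher and 1, Apoa2, lower, and the median was 0.062. Liver-list reads made up 1.83% of the counts outside the 4 abundant genes in AG_6 and 1.54% in MG_6. The other 10 flight libraries lay between 0.0299% and 0.317%, and the 5 GC libraries between 0.0815% and 0.113%. AG_3, AG_5, MG_3, MG_4 and MG_5 were also above every GC library, while AG_2, AG_4 and MG_2 were below every one.

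**Figure D5:**
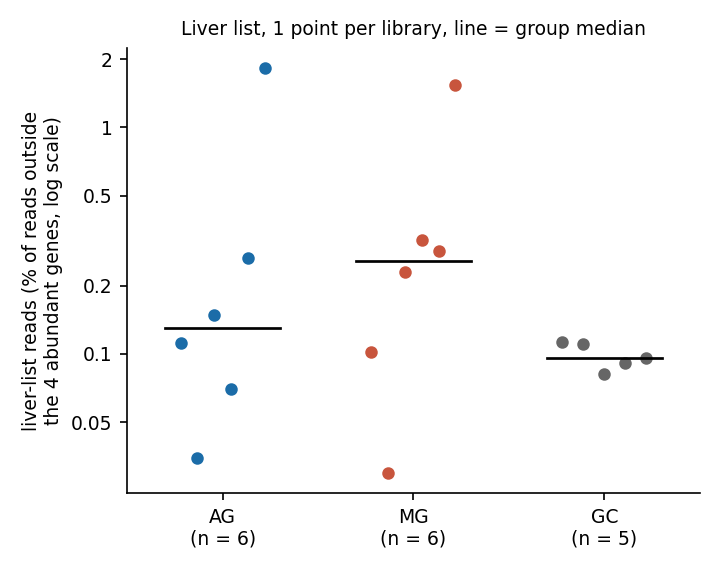
Reads of the 24 liver-list genes as a percent of each library's reads outside the 4 abundant genes (log axis), 1 point per library with a line at the group median (6 AG, 6 MG and 5 GC libraries). AG_6 at 1.83% and MG_6 at 1.54% stand above all other libraries, and the 5 GC libraries lie between 0.0815% and 0.113%.

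Mir122, the gene of the microRNA that dominates hepatocytes, had from 27 to 142 reads with a median of 91.5 in AG and from 23 to 637 with a median of 62.5 in MG, against 34, 86, 36, 32 and 10 in GC. Its log2 fold change was 1.95 (SE 0.75, edgeR unadjusted p = 0.0153 and adjusted p = 0.345), with 1.70 in AG and 2.20 in MG. Without AG_6 and MG_6 it was 1.22 with unadjusted p = 0.0448.

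After TMM scaling, the list medians of red cell genes were above ground in AG and near or below it in MG. Of 4 globin genes tested, 0 passed the criterion, 3 were positive and the median was 0.21, with 0.52 in AG and -0.11 in MG. Heme and iron genes (5 tested) and red cell membrane genes (4 tested) gave 0 past the criterion. Their medians were 0.87 in AG and 0.028 in MG for heme and iron genes, and 0.79 in AG and -0.32 in MG for red cell membrane genes. Under the wider filter of at least 5 reads, 1 of 4 globins was positive (median -0.018), 7 of 12 heme and iron genes were (0.071), and 5 of 14 red cell membrane genes were (-0.17), of which Ank1 and Dmtn, both of the membrane skeleton, were lower by the criterion, as were 5.34% of the 6270 genes. These directions depend on the scaling. As a median share of all counts, heme and iron genes made up 0.107% in AG, 0.229% in MG and 0.237% in GC, red cell membrane genes 0.0434%, 0.0562% and 0.0547%, and globins 0.902%, 1.25% and 0.921%. Bpgm, which makes the 2,3-bisphosphoglycerate that loosens oxygen from hemoglobin, passed the criterion higher (3.68% of all tested genes did), and it ran from 293 to 479 with a median of 356 in AG, from 51.9 to 243 with a median of 103 in MG, and was 65.7, 44.5, 80.7, 161 and 154 in GC. The fitted log2 fold change was 1.01 (SE 0.41) (edgeR, unadjusted p = 0.0211 and adjusted p = 0.521), with 1.85 in AG and 0.17 in MG. All 6 AG libraries were above every GC library and the MG libraries overlapped GC. Under the wider filter Bpgm did not pass the criterion. Of the 17 red cell enzyme genes with at least 5 reads, 1, Pgk1, passed it higher (5.69% of the 6270 genes did). Pgk1 had 7 flight and 0 GC reads, so it passed that filter on flight reads alone. Over the alternative settings the log2 fold change of Bpgm ran from 0.32 to 1.24. Rnf10, a ubiquitin ligase gene, had 0.67 (SE 0.36) with 1.44 in AG and -0.096 in MG and did not pass the criterion. Trim39 was placed on the reticulocyte clearance list with its result known, and the other 5 tested members of that list gave 0 past the criterion. Among the 21 with at least 5 reads, Bsg, a red cell surface protein gene, was higher by it too (5.69% of the 6270 genes were), and 0 were lower.

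Of 17 tested platelet genes, 16 were negative and 12 were below ground in both AG and MG, where 102 of all 272 genes were, 0 passed the criterion, and the median was -0.23, against -0.096 over all genes. All 22 members had at least 5 reads and could be tested under that wider filter, of which 1 was positive and 1, Gp6, the platelet collagen receptor, was lower by the criterion (5.34% of the 6270 genes were), with a median of -0.55 against 0.0083 over the 6270 genes. F13a1, coagulation factor XIII, had -0.90 (SE 0.52), Ppbp, a platelet chemokine, -0.65 (SE 0.40) and Pf4, platelet factor 4, -0.23 (SE 0.38). Vwf, von Willebrand factor, which endothelium also makes, was the positive member with 0.67 (SE 0.52). Of 3 tested myeloid genes 0 passed, nor did any of the 10 with at least 5 reads, and Fcer1g, an Fc receptor subunit, had -0.79 (SE 0.46). Alox5ap, which leukotriene synthesis needs, had -0.76 (SE 0.38) with -1.19 in AG and -0.33 in MG, and 9 of its 12 flight libraries were below the lowest GC library. No lymphocyte gene had enough counts.

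The 13 mitochondrial mRNAs lay on opposite sides of ground in the flight groups. After TMM scaling all 13 were below GC in AG and above GC in MG, with a median of -0.24 in AG and 0.43 in MG, and 0 passed the criterion between flight and GC. For mt-Cytb the values were -0.17 in AG and 0.63 in MG, for mt-Nd1 -0.45 in AG and 1.02 in MG and for mt-Nd4 -0.24 in AG and 0.51 in MG, and averaging the flight groups gave 0.23, 0.28 and 0.14. Without TMM scaling and on log2(RPKM + 1) these 3 values were negative, and with at least 5 reads as the filter 6 of the 13 were positive. With 1 library left out at a time, they ran from 0.16 to 0.34, from 0.065 to 0.67 and from 0.019 to 0.33 for mt-Cytb, mt-Nd1 and mt-Nd4.

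Of the remaining genes, Ybx1, an RNA-binding protein gene, ran from 58.7 to 149 with a median of 108 in AG, from 67.5 to 167 with a median of 100.4 in MG, and was 51.1, 44.5, 49.7, 80.3 and 66.8 in GC. All 12 flight libraries were above the GC median. A log2 fold change of 0.91 (SE 0.36) was found (edgeR, unadjusted p = 0.0179 and adjusted p = 0.521), with 0.87 in AG and 0.95 in MG, the most even pair among the genes higher in flight by the criterion. Prkar1a, a regulatory subunit of protein kinase A, ran from 0 to 39.2 with a median of 33.3 in AG, from 7.6 to 64.9 with a median of 17.2 in MG, and was 43.8, 104, 80.7, 50.2 and 25 in GC, with a log2 fold change of -1.06 (SE 0.49) (edgeR, unadjusted p = 0.0423 and adjusted p = 0.806) and -1.03 in AG and -1.09 in MG. Gm20186, a gene of ribosomal RNA-like sequence, ran from 0 to 175 with a median of 33.3 in AG, from 0 to 67.5 with a median of 2.05 in MG, and was 358, 104, 124, 30.1 and 16.7 in GC. The flight libraries differed from GC by -1.99 (SE 0.78) on the log2 scale (edgeR, unadjusted p = 0.0176 and adjusted p = 0.521), with -1.10 in AG and -2.88 in MG. Without GC_1, its highest library, this was -1.14. H3f3a, a histone H3.3 gene, had -0.80 (SE 0.40), Sh3bgrl3 -0.79 (SE 0.43) and Gm6634 -0.77 (SE 0.39), and none passed the criterion.

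Counted over all 272 genes, 16 were more than 1.5-fold above GC in both AG and MG (5.88%) and 13 more than 1.5-fold below in both (4.78%). The higher 16 were Trim39, Hist1h3b, F630028O10Rik, Vmp1, Alb, Mir17hg, Hist2h2aa2, Ybx1, Rps3a1, Rps24, Ahnak, Col1a2, Cotl1, Gm10800, Isca1 and Reln. The lower 13 included Gm20186, Snhg1, Prkar1a, Ckap5, F13a1, Fcer1g, Rplp2 and Odc1. With no TMM factor the counts were 8 higher and 15 lower, and on log2(RPKM + 1) they were 3 and 17, so the balance turned round. Without GC_4 the higher count was 27. The lower count was 28 without MG_6, 21 without GC_1, 20 without GC_3 and 8 without MG_3. Tested alone against GC, AG called 4 genes (1.47%), Trim39, Hist1h3b, Vmp1 and Bpgm, and MG called 0 (0.0%), with 12 at an unadjusted p under 0.05. Between MG and AG 0 genes were called (0.0%) by edgeR, with 36 at an unadjusted p under 0.05, so no gene was shown to differ between the gravity conditions in its distance from ground.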

How the data were processed

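Plasma cfRNA of 17 mice was extracted from 50 μl of plasma, and 2.5 μl of RNA went into each small RNA library, per the labels. Mapping to mm10 was done by the authors with CLC Genomics Workbench, and the deposited tables hold the total read count, not normalized, of 49585 genes. They also deposited RPKM, scaled to gene length and mapped reads, and TPM, rescaled per library, which was not used. Strand, trimming and the treatment of reads with several matches are not given in the sources used here.

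Groups came from the labels. Counts were joined across libraries and tested in R 4.3.3 with edgeR 4.0.16 (TMM scaling, filterByExpr with a minimum count of 10, quasi-likelihood F-test, contrast of the mean of AG and MG against GC, 17 libraries in 1 fit, Benjamini-Hochberg adjustment). In the same fit, genes with an unadjusted p under 0.05 and over 1.5-fold change were counted. The study applied these cutoffs to pairs of groups and with another test. Shares of counts were compared by exact permutation over libraries in Python 3.11.15. Of 49585 genes, 12605 had a count, 6270 had at least 5 reads and 272 were tested. DESeq2 1.42.0, limma 3.58.1 (voom, and log2(RPKM + 1)), other filters and scalings, a replicate block and each library left out were alternatives. The fit was tested on simulated counts.

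For 579 genes the count was 0 in every library and the RPKM above 0. For 546 of them, with 1 exon in GENCODE M21 (GRCm38, which is mm10), reads were recovered from RPKM, and 99.5% of 2832 values under 200 reads came out whole within 0.05. They were fitted with the counts as an alternative chosen after the data were seen. The limits given for genes with 0 reads cover counting error only. Standard errors include the spread between these libraries, and p-values set the group difference against that spread.

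The named genes were those with an adjusted p under 0.05, the 12 smallest p higher and the 12 lower in flight, list members past the criterion, the 4 abundant genes and 3 mitochondrial mRNAs. The members and gene lists were chosen with earlier results of these data known. The sorting by small RNA genes, the liver genes of the wider fit and any other gene outside that rule were chosen with their values in view.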

Additional observations from a re-analysis of the deposited data

Results flagged for a closer look

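A library stood apart from the rest of its group, by Dixon's criterion at the 95% level, in 22 of 96 checks of a named gene or the total count in a group, where chance flags about 1 in 20. GC_4 accounted for 8 and MG_6 for 6. In TMM-normalized CPM, which a low scaling factor can raise above the library's own total, GC_4 was apart for Trim39 (311), Hist1h3b (100.3), Vmp1 (1655), Snhg1 (75000), Eif4a2 (5337), Sh3bgrl3 (40.1), Tmem38b (1265000), mt-Nd1 (251), and MG_6 for Alb (2359), Snhg1 (43590), Tmem38b (1122000), Rn18s-rs5 (249000), mt-Nd1 (586). The total count of MG_6 was also apart from its group, at 223200 reads. AG_6 was apart for Alb (1514), MG_3 for Vmp1 (2531), Bpgm (243), MG_4 for Trim39 (763), Mir17hg (625), MG_1 for Gm20186 (67.5), AG_5 for Prkar1a (0) and AG_1 for mt-Nd4 (533). No gene differed between MG and AG at an adjusted p under 0.05 in edgeR.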

How the results depend on the processing

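The main test called 2 genes, 13 passed the criterion (10 higher and 3 lower), and 16 were higher and 13 lower by more than 1.5-fold in both flight groups. With DESeq2, 4 genes were called, 18 passed the criterion (11 higher, 7 lower), and 15 were higher and 16 lower in both flight groups. With size factors of the RLE kind, 2 genes were called, 16 passed the criterion (10 higher, 6 lower), and 14 were higher and 16 lower in both flight groups. With no TMM factor, 0 genes were called, 31 passed the criterion (6 higher, 25 lower), and 8 were higher and 15 lower in both flight groups. With all genes with at least 5 reads, 6 genes were called, 692 passed the criterion (357 higher, 335 lower), and 1333 were higher and 907 lower in both flight groups. With a minimum count of 5, 0 genes were called, 31 passed the criterion (24 higher, 7 lower), and 54 were higher and 32 lower in both flight groups. With edgeR's exact test, 2 genes were called, 14 passed the criterion (10 higher, 4 lower). With limma voom, 2 genes were called, 15 passed the criterion (10 higher, 5 lower), and 15 were higher and 12 lower in both flight groups. With limma on log2(RPKM + 1), 0 genes were called, 25 passed the criterion (3 higher, 22 lower), and 3 were higher and 17 lower in both flight groups. With flight as 1 group of 12 libraries, 0 genes were called, 13 passed the criterion (10 higher, 3 lower). With the 4 abundant genes left out, 2 genes were called, 12 passed the criterion (10 higher, 2 lower), and 18 were higher and 12 lower in both flight groups. With the share of the 4 genes as a covariate, 0 genes were called, 15 passed the criterion (5 higher, 10 lower), and 12 were higher and 4 lower in both flight groups. With the replicate block, 2 genes were called, 15 passed the criterion (9 higher, 6 lower), and 15 were higher and 15 lower in both flight groups. With the reads recovered from RPKM added to the counts, 1 gene was called, 42 passed the criterion (16 higher, 26 lower), and 19 were higher and 36 lower in both flight groups. With AG_6 and MG_6 both left out, 3 genes were called, 21 passed the criterion (10 higher, 11 lower), and 17 were higher and 19 lower in both flight groups. The last 2 of these settings were chosen after the data were seen. Leaving out 1 replicate at a time gave 0 to 3 calls, 12 to 26 genes past the criterion, 9 to 19 those higher, 2 to 13 those lower, 12 to 27 those higher in both flight groups and 8 to 28 those lower in both, and without GC_4 3 genes were called. The cause of these shifts was not tested. Without TMM scaling the median log2 fold change over all tested genes was -0.49, against -0.096 with it, so the balance of higher against lower genes depends on the scaling, and on log2(RPKM + 1) it was -0.36. Replicate numbers did not pair most libraries: deviations of same-numbered libraries correlated from -0.449 to 0.533, and 5 of 17 libraries correlated best with their own number. The 3 pairs of libraries numbered 1 correlated at 0.433, 0.433 and 0.533. AG_6 and MG_6, which carried most liver reads, correlated at 0.253, and GC has no library of that number. The paired fit with the replicate block called the same 2 genes, with adjusted p of 0.0145 and 0.0242.

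Of 956 alternative values of the 31 named genes, 894 kept direction and side of the threshold, 38 lost the threshold, 5 passed it and 19 changed sign, all in the abundant genes and the mitochondrial mRNAs. These log2 values were with no TMM factor -0.12 (Polr2m), -0.35 (Lars2), -0.22 (Rn18s-rs5), -0.15 (mt-Cytb), -0.039 (mt-Nd1), -0.27 (mt-Nd4), with all genes with at least 5 reads -0.073 (Lars2), -0.030 (mt-Nd4), with limma on log2(RPKM + 1) -0.29 (Polr2m), -0.52 (Lars2), -0.38 (Rn18s-rs5), -0.33 (mt-Cytb), -0.20 (mt-Nd1), -0.44 (mt-Nd4), with the share of the 4 genes as a covariate -0.0043 (Tmem38b), with the replicate block -0.031 (mt-Nd4), with the reads recovered from RPKM added to the counts -0.22 (Lars2), -0.097 (mt-Cytb), -0.25 (mt-Nd4). Log2 differences in share, by share outside the 4 genes and by TMM-normalized CPM, were Tmem38b 0.65 and 0.65, and -0.0047 to 0.34 over the leave-outs, Polr2m 0.32 and 0.32, and -0.21 to 0.17 over the leave-outs, Lars2 0.090 and 0.086, and -0.59 to -0.15 over the leave-outs, Rn18s-rs5 0.23 and 0.23, and -0.29 to 0.075 over the leave-outs. The total count gave -0.091 to 0.21. On simulated counts the test found 87.8% of genes changed by a log2 fold change of 2 and 7% of those changed by 1 among the 272, so most changes of 2-fold were below what this depth and spread can call. The simulation gave all genes 1 spread, with no composition differences or outlier libraries, which these data have. The shares it found can therefore be too high for these data. Of the calls made there, 9.68% were false for changes of 1 and 3.31% for changes of 2. Among genes with at least 5 reads it found 0% of those changed by 2 and 62.2% of those changed by 5.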

Other observations

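Collagen and bone genes were above ground in both flight groups in 3 of 4 tested members, as were 65 of all 272 genes, with 0 past the criterion. Col1a2, a collagen chain of bone and skin, had a log2 fold change of 1.11 (SE 0.65), with 0.63 in AG and 1.60 in MG, Col1a1 had 0.59 (SE 0.58) and Dcn, a collagen-binding proteoglycan, 0.73 (SE 0.85), while Fn1, fibronectin, had -0.042 (SE 0.68). The median over the 4 was 0.66, with AG_6 and MG_6 included. Among members with at least 5 reads, 8 of 15 were positive, 1 (Lum) was higher and 0 lower by the criterion (5.69% and 5.34% of the 6270 genes), and the median was 0.29. Lum passed that filter on flight reads alone, with 13 flight and 0 GC reads. Ttn, of skeletal muscle, had 0.29 (SE 0.57), and of 12 muscle genes with at least 5 reads 1, Ryr1, was higher by the criterion, near the same background, 0 were lower and the median was -0.24. Ryr1 also passed on flight reads alone, with 7 flight and 0 GC reads.

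The lists of erythroid transcription, lymphocytes, p53 targets, glucocorticoid response, integrated stress response, interferon response, long noncoding RNAs and nuclear oxidative phosphorylation had 0 members with enough counts for the main test. With at least 5 reads as the filter, no member of them had an adjusted p under 0.05 in edgeR, in a test that found 62.2% of simulated log2 changes of 5 and 0% of those of 2. By the criterion, 3 higher and 0 lower of 51 nuclear oxidative phosphorylation genes passed, 1 higher and 2 lower of 10 p53 targets, 1 higher and 0 lower of 4 integrated stress response genes, 0 higher and 1 lower of 7 interferon response genes and 0 higher and 1 lower of 9 lymphocyte genes, where 5.69% of the 6270 genes were higher and 5.34% lower. Among those higher, Atp5j, Ndufc2 and Atf5 passed the read filter on flight reads alone, with 24, 8 and 12 flight reads and 0 in GC. Of 10 glucocorticoid response, 8 erythroid transcription and 3 long noncoding RNA genes, 0 passed. In the main test heat shock genes had 2 members and oxidative stress genes 1, and 0 passed the criterion. Translation factors had 9 tested members with a median of -0.21, and 1, Ybx1, passed the criterion higher, where 3.68% of all tested genes did. Under the filter of at least 5 reads, 0 of 47 were higher and 4 (Eif2b4, Eif3c, Eif3m and Eif5a2) lower by the criterion (5.34% of the 6270 genes were), with a median of -0.32. Eif3m passed this filter on GC reads alone, with 5 GC and 0 flight reads. The same filter gave 0 past the criterion of 11 heat shock and 12 oxidative stress genes.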
